A study of Mus musculus with 26 samples.

Results

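Broad H3K27ac domains are long stretches of chromatin over which regions of acetylated lysine 27 of histone H3, called in single libraries, join up. The domains were chosen by their H3K27ac calls: they were found by merging the H3K27ac regions of 8 libraries wherever at least 1 bp was shared, and by keeping merged regions that were called in all 8 libraries, measured at least 15 kb from start to end and touched no region called in input chromatin. The rule kept 293 of 77715 merged regions. The length and the calls in every library chose the domains, so neither is a finding, and a domain present in 1 group only could not enter. Length was measured on calls merged over all groups, so a domain could reach 15 kb through the libraries of 1 condition. Only 108 domains had 15000 bp called in every library alone. Changes in called length, and in tags summed over it, are therefore not independent of the rule.

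The libraries come from RAW264.7 cells, a mouse macrophage line transformed by Abelson leukemia virus. One stable line expressed HA-tagged Nur77 and the other GFP, both from a doxycycline-inducible construct, and both lines received 50 ng/ml doxycycline for 18 h in every group. Cells were then left untreated or given 500 ng/ml lipopolysaccharide (LPS), a bacterial cell wall component sensed by TLR4, for 1 h. H3K27ac and RNA polymerase II (Pol II) were each profiled in 2 libraries per line and condition after fixation in 1% formaldehyde, HA in 3 untreated and 3 LPS libraries of the Nur77 line after 2 mM DSG and 1% formaldehyde, and input in 1 library per line and condition. Each construct is represented by 1 stable line, so the construct and the line cannot be told apart, and the HA tag was not profiled in GFP cells. The labels do not say that replicates are separate cultures, so the p-values measure the spread between these libraries, which may be technical.

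H3K27ac is placed by the acetyltransferases CBP and p300 on nucleosomes beside active promoters and enhancers. Clusters of enhancers that carry it over long stretches are common near genes tied to a cell type, and in macrophages such stretches lie near lineage regulators and genes that answer to LPS. Nur77, encoded by Nr4a1, is an orphan nuclear receptor that binds the NBRE sequence as a monomer and is itself an immediate-early gene of stimulated macrophages.

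HA libraries held 6.41 to 18.2 M tags, while Pol II had 11.9 to 23.1 M, input 14.0 to 23.4 M and H3K27ac 22.3 to 28.4 M. Values below are scaled tags: the deposited tags per 10 M tags of a library, summed over the pieces called in a domain, after scaling between libraries. Some libraries stood apart. HA peaks in the replicate 3 libraries had widths of 342 and 427 bp, while the other 4 HA libraries had 826 to 1017 bp, and the untreated Nur77 Pol II replicate 1 was given a fragment length of 1550 bp against 174 to 318 bp elsewhere. Calling with the local filter switched off is recorded for 5 of the 8 H3K27ac libraries, and not for 2 untreated and 1 LPS library. All 9 macrophage markers examined, among them Cd14, Cd68 and Spi1, lay under an H3K27ac region called in all 8 libraries, against 4 of 19 markers of other cell types (Cd3d, Cdh1, Gfap and Cdh5, at 36.5 to 184 tags per library). The macrophage marker with the least signal, Adgre1, had 43.5 to 72.9 tags per library, within the range of those 4. None of the 28 markers lay in a domain, though 4 macrophage markers lay under a region of at least 15 kb that overlapped an input region.

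Of the microRNA hairpins in the sequence set used here 12 lay in 8 domains, and 22 mature microRNAs from them matched RefSeq by name. The gene Mir1942, in a domain over Plec, was not in that set of hairpins. Those printed here belong to the domains with the strongest responses of Pol II to LPS among microRNA-bearing domains, and to the cluster with most hairpins. Capitals mark the seed, bases 2 to 8, and the build is GRCm38.p6, which is mm10. The domain over Mir221 and Mir222 (chrX:19140010-19178838) gained both marks, the domain over Mir339 (chr5:139362077-139383481) lost both, and the domain over Zswim4 (chr8:84196819-84211989) holds the cluster of Mir23a, Mir27a and Mir24-2. A single seed was shared among the 22, by miR-221-3p (chrX:19146307-19146329, minus strand) and miR-222-3p (chrX:19146901-19146923, minus strand).
miR-221-3p: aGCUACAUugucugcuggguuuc
miR-222-3p: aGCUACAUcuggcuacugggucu
miR-339-5p: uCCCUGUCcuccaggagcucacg
miR-23a-3p: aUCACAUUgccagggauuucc
miR-27a-3p: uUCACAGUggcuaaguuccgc
miR-24-3p: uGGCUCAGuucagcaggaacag

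The overlap of HA regions with promoters was counted next. Of 262 RefSeq promoter windows in 150 domains, each the 250 bases before an annotated start, 19 windows in 17 domains were under an HA region called in all 6 libraries, against 1587 of all 32851 windows. The 4 printed here, 5′ to 3′ on the gene's strand, show the promoters of Ern1, the endoplasmic reticulum stress sensor IRE1, of Pla2g4a, cytosolic phospholipase A2, of the noncoding gene Gm21057 in a domain with 4 HA regions, and of Rtn4, which encodes the Nogo proteins. These 4 were picked by hand among the 19 and are not the 4 with most HA. Capitals mark matches to the motifs searched, on either strand: the NBRE AAAGGTCA, the AP-1 site TGANTCA, the PU.1 site GAGGAAGT and the kappa B site (GGGA, any 4 bases, CC). The windows are chr11:106487797-106488046 (minus strand, mean HA 164 scaled tags), chr1:149961291-149961540 (minus, 108), chr7:80075258-80075507 (minus, 79.2) and chr11:29692648-29692897 (plus, 59.4).
Ern1: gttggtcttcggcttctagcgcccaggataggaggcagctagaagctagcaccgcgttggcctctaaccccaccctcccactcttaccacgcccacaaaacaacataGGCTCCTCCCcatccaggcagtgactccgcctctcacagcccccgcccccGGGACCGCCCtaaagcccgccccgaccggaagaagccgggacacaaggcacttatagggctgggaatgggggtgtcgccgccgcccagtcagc
Pla2g4a: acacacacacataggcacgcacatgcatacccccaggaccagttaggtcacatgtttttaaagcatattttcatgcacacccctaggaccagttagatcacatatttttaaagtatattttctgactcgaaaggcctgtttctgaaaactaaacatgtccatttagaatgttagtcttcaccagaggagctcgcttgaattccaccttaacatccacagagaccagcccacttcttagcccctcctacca
Gm21057: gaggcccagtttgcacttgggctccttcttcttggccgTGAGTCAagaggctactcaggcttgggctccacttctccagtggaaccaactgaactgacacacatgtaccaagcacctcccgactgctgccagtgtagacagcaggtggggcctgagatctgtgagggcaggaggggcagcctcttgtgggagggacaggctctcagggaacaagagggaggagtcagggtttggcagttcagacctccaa
Rtn4: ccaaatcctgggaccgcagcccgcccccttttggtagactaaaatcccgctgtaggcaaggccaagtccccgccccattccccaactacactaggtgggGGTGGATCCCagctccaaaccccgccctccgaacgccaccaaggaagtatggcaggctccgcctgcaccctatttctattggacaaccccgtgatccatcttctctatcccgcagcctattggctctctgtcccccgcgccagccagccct
The Ern1 window held 2 kappa B matches, Rtn4 1 and Gm21057 1 AP-1 match, and Pla2g4a held none of the 4 motifs. Over all 262 windows in domains the NBRE was found in 0, the AP-1 site in 5.34%, the PU.1 site in 3.44% and the kappa B site in 26.0%. The shares over all 32851 RefSeq windows were 1.34%, 6.75%, 2.44% and 17.6%, and over the 1587 windows under an HA region anywhere they were 3.84%, 9.39%, 5.80% and 23.0%. Over the 19 windows in a domain and under an HA region they were 0, 5.26%, 0 and 31.6%. A match is a description of the letters, and its absence says only that these letters are not in the window.

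The domains had a median length of 19.0 kb and spanned 6.28 Mb in all. They made up 1.08% of the 27094 H3K27ac regions called in every library and held 6.24% of their tags. The longest, over the noncoding genes Gm31718 and A630001O12Rik on chr8:126824119-126891246, spanned 67.1 kb and also had the highest H3K27ac, at a mean of 9366 scaled tags and 143 tags per covered kb. Next in length were the domains over Slc6a6, the taurine transporter (53.2 kb), Lrp1, an endocytic receptor of macrophages (48.3 kb), Rtn4 (47.9 kb), the adhesion gene Cadm1 (47.4 kb) and Gnptab, which tags lysosomal enzymes with mannose 6-phosphate (47.0 kb). After the longest domain, the most H3K27ac lay over Lcp1, the actin bundler L-plastin of leukocytes (3661 scaled tags), near Gm13469 (3360), and over Zeb2, a repressor that maintains macrophage identity (3131).

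Few domains were a single called stretch. A median of 83.1% of a domain's length was covered, with a lowest value of 50.7%, and 8 domains were 1 piece in every library. A single called region of at least 15 kb was present in 220 domains in at least 1 library and in 28 domains in all 8. Across libraries the median covered length was 15.0 to 16.9 kb in 2.23 to 3.03 pieces on average. Just inside the length limit were domains over Foxp1 (15001 bp), Gm46842 (15008 bp) and Ankrd28 (15057 bp), and just outside it regions over Wwp1 (14979 bp), 4732471J01Rik (14964 bp) and Bri3 (14942 bp).

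Most domains overlapped genes, and about as many lacked an annotated start as held one. A protein-coding gene overlapped 276 domains and no gene of any kind overlapped 9. An annotated start lay in 149 domains and none in 144. Starts were present in 50.9% of domains, 49.2% of the 657 regions of 10 to 15 kb and 30.0% of the 21681 shorter ones, all called in 8 libraries away from input. Some loci held several domains: 28 neighbouring pairs lay under 100 kb apart, among them 4 domains over Pcdh7, a protocadherin, and 3 over Rptor, the mTORC1 subunit Raptor. Another 499 regions of at least 15 kb in all 8 libraries overlapped an input region and were left out, so genes under those are not in the counts of domains.

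HA regions, the sites where tagged Nur77 was called in all 6 HA libraries, were found in 192 of 293 domains (65.5%). There were 101 domains with 0, 114 with 1, 60 with 2, 15 with 3 and 3 with 4, and the 291 HA regions were all away from input regions. The share with an HA region was 68.1% in the long regions over input, 53.3% at 10 to 15 kb and 28.2% below 10 kb. Per length the order was the reverse of that for the shorter regions: the domains held 0.463 HA regions per 10 kb, the regions of 10 to 15 kb 0.490 and those below 10 kb 0.842. The long regions over input held 0.399. The strongest HA region of a domain had a median of 98.6 scaled tags, against 97.6 in the long regions over input, 72.1 at 10 to 15 kb and 45.8 below 10 kb. This is a highest value per region, and longer regions held more HA regions, whose part in it was not tested.

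Longer domains held more HA regions. The median length was 18.2 kb for domains with 0 HA regions, 18.6 kb with 1, 19.1 kb with 2 and 32.3 kb with 3 or 4. Across the 293 domains the number of HA regions followed length with a Pearson r of 0.41 and a Spearman coefficient of 0.27, given as a description. H3K27ac per covered kb differed little, from a median of 56.2 scaled tags per kb with 0 HA regions to 61.0 with 3 or 4. Domains over Gm31718, Gnptab and Zfp710, a zinc finger gene (chr7:80054243-80085927), had 4 HA regions each.

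**Figure D1:**
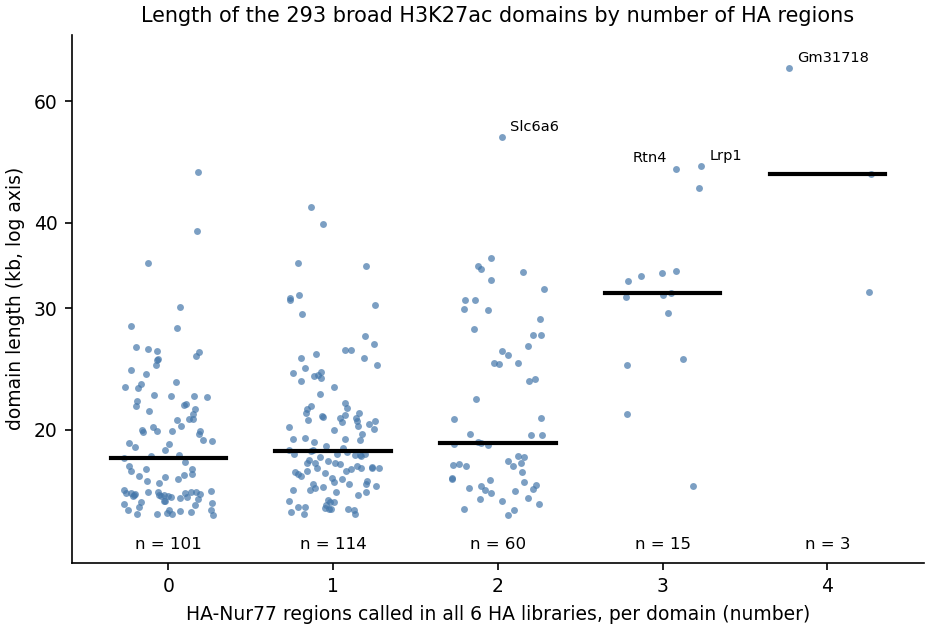
Domain length (kb, log axis) by the number of HA regions called in all 6 HA libraries, with 1 point per domain and a bar at the median. Medians were 18.2 kb at 0 HA regions, 18.6 kb at 1 and 19.1 kb at 2, and the labelled domains over Gm31718, Slc6a6, Lrp1 and Rtn4 are the 4 longest.

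The strongest HA signal in a domain was over Usp32, a deubiquitinase gene (chr11:85003141-85004157), with 625, 696 and 665 scaled tags in the untreated libraries and 791, 721 and 729 after LPS. Next was Dpep2, a dipeptidase gene (chr8:106006801-106007817), with 678, 444 and 598 untreated and 808, 495 and 725 after LPS. The third was Kansl1, part of a histone acetyltransferase complex, at means of 564 ± 197 (SD, n = 3) untreated and 511 ± 162 (SD, n = 3) after LPS. The conditions overlapped at Dpep2 and Kansl1. At Usp32 all 3 LPS libraries lay above all 3 untreated ones, and the change was 0.17 on the log2 scale with an adjusted p of 0.734 in limma.

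LPS changed H3K27ac in most domains, in both directions. In the GFP line 144 of 293 domains were higher and 83 lower after LPS (limma, FDR 0.05), against 27.5% higher and 25.5% lower over all 27094 regions. In the Nur77 line 144 were higher and 91 lower, against 28.5% and 27.1%. Of the 499 regions of at least 15 kb over input, 279 were higher and 108 lower in GFP, and 282 and 107 in Nur77. Of the 657 regions of 10 to 15 kb, 297 and 198, and 284 and 212, were called. Median H3K27ac was 948 scaled tags in the domains and 70.0 in regions below 10 kb. The part of tag number in the shares called was not tested. Which direction had more domains depended on the scaling of the libraries: without scaling factors the counts were 85 higher and 139 lower in GFP and 74 and 146 in Nur77, and with cyclic loess 95 and 134, and 98 and 127. Leaving out the factors moved the median log2 change of all regions by -0.33 in GFP and -0.35 in Nur77, while the untreated libraries had factors of 1.10 to 1.17 and the LPS libraries 0.84 to 0.91. Under all 3 scalings 83 domains were higher and 83 lower in GFP, 74 and 91 in Nur77, and 69 higher and 73 lower in both lines. Per covered kb 99 were higher and 57 lower in GFP, and 95 and 62 in Nur77, so the counts were lower where the length called was divided out. The GFP and Nur77 changes come from separate libraries, and 129 domains were called higher in both lines, 73 lower in both, 52 in 1 line and 36 in neither. Joint counts over all regions are not given here, so these counts do not set the domains apart from other regions.

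The domain with the largest gain in GFP was over Jade2, which encodes a subunit of a histone acetyltransferase complex (chr11:51825453-51850895). It had 152 and 159 scaled tags in untreated GFP, 1114 and 1019 after LPS, 277 and 291 in untreated Nur77, and 1445 and 1422 after LPS. All 4 LPS libraries exceeded all 4 untreated ones. The log2 change was 2.77 ± 0.07 (SE, adjusted p = 6.42e-10, limma) in GFP and 2.33 ± 0.07 (SE, adjusted p = 1.36e-09, limma) in Nur77. The called length grew from 4.33 to 17.1 kb in GFP and from 6.79 to 23.4 kb in Nur77, and per covered kb the change was 0.56 and 0.34. Both untreated means lie under the 15 kb of the rule, which was met on calls merged over both conditions. The growth in length is therefore not independent of how the domain was chosen.

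Gains of like size were seen over Tasp1, the protease that cleaves MLL proteins, and over Trps1, a GATA-type repressor. Tasp1 (chr2:139830873-139845943) went from 128 and 139 to 797 and 726 scaled tags in GFP and from 229 and 253 to 1234 and 1221 in Nur77 (log2 2.50 and 2.34). Trps1 (chr15:50691249-50709807) went from 435 and 461 to 2227 and 1830 in GFP and from 589 and 520 to 2442 and 2160 in Nur77 (2.17 and 2.05). The domain over the noncoding gene Gm20125 (chr10:17008100-17026768) went from 139 and 150 to 680 and 601 in GFP and from 318 and 298 to 1399 and 1206 in Nur77 (2.14 and 2.07). In each of the 3 the LPS libraries were above the untreated ones of their line without overlap. Fnip1, a folliculin partner in nutrient sensing, rose by 1.95 and 1.98, and Mef2a, a MADS-box transcription factor, by 1.76 and 2.40. These 6 kept their direction in all 3 scalings.

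The domain with the largest loss in GFP lay over 3110082I17Rik, Gpr146, a receptor tied to cholesterol handling, and Mir339. Its scaled tags were 881 and 781 in untreated GFP, 237 and 263 after LPS, 1662 and 1779 in untreated Nur77, and 441 and 501 after LPS. It fell by 1.73 in GFP and by 1.87 in Nur77 on the log2 scale, and its covered length went from 15.6 to 8.69 kb and from 20.3 to 12.6 kb. Tpcn1, an endolysosomal cation channel, went from 1503 and 1421 to 447 and 497 in GFP and from 1721 and 1833 to 449 and 494 in Nur77. The LPS libraries of both domains were below the untreated ones of the same line without overlap. Gcnt1, a glycan-branching enzyme, fell by 1.18 and 1.47, Runx1, a factor of blood development, by 1.14 and 0.75, and Csk, the kinase that restrains Src kinases, by 1.10 and 1.24. These domains also kept their direction in all 3 scalings.

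**Figure D2:**
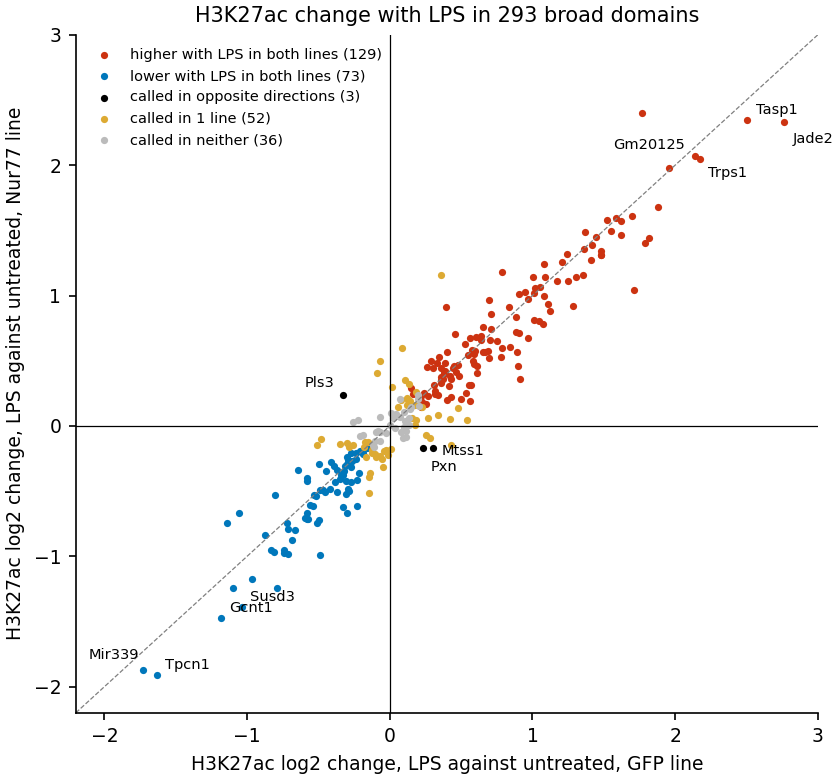
Log2 change of H3K27ac with LPS in the GFP line (x axis) and in the Nur77 line (y axis), with 1 point per domain, coloured by the calls with scaling factors, and the line of equal change dashed. Points run along the dashed line from the Mir339 domain (-1.73 and -1.87) to Jade2 (2.77 and 2.33). Without scaling factors the median domain moves from 0.17 to -0.17 on the x axis and from 0.15 to -0.21 on the y axis.

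Other long, highly acetylated domains moved by different amounts. The domain near Gm13469 rose by 1.17 and 1.12. Lcp1 had 2853 and 2845 scaled tags untreated and 4860 and 4409 after LPS in GFP, and 2777 and 2771 against 4515 and 4256 in Nur77 (log2 0.70 and 0.66). Zeb2 rose by 0.58 and 0.59, though with cyclic loess it was at 0.06 in GFP and did not pass. The longest domain, over Gm31718, was 0.45 and 0.46 higher with scaling factors, but with cyclic loess it was at -0.28 and -0.20, so its direction depends on the scaling. Slc6a6 and Lrp1, the next in length, fell by 0.72 and 0.58 in GFP and by 0.74 and 0.72 in Nur77.

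**Figure D3:**
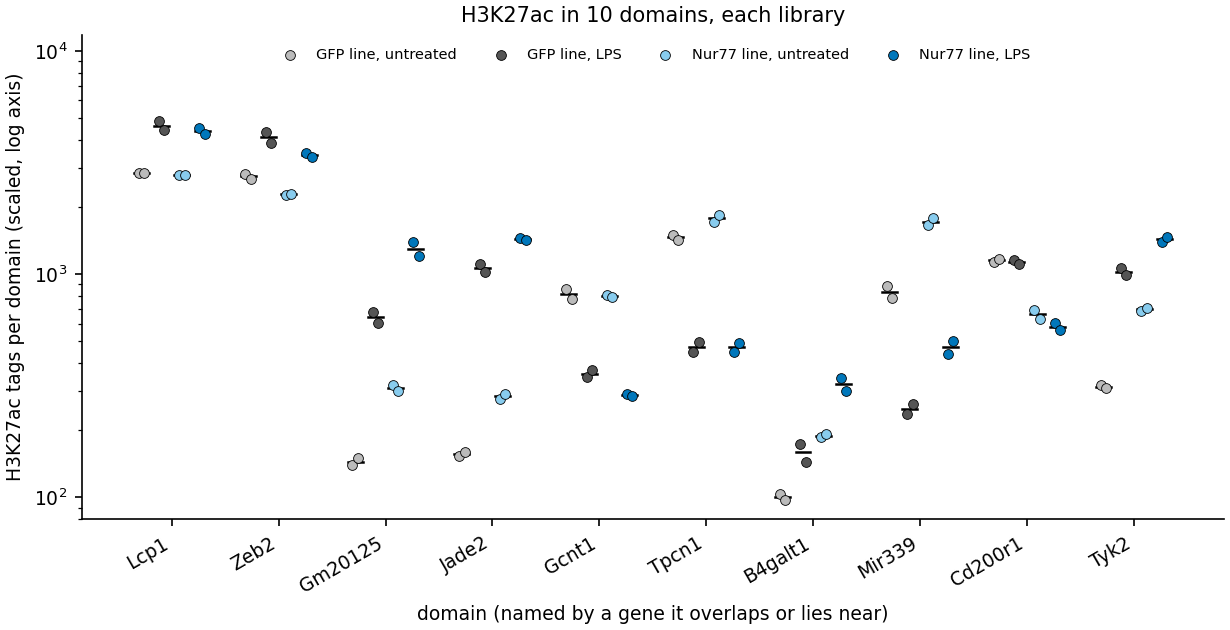
Scaled H3K27ac tags (log axis) in each library for 10 domains, with points for libraries, a bar for the mean and colours for line and condition (n = 2 each). Jade2 and Gm20125 rise with LPS in both lines, Tpcn1 and Gcnt1 fall in both, and Cd200r1 is lower in the Nur77 line in both conditions.

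Gene lists were used to group the domains by the genes they cover. Beside the counts below, 49.2% of all 293 domains were higher and 28.3% lower with LPS in GFP, and 49.2% and 31.1% in Nur77, and over all regions the shares were 27.5% and 25.5%, and 28.5% and 27.1%. No list was tested against the other domains. Of 47 myeloid transcription factor genes 11 lay under 13 domains, of which 4 were higher and 7 lower with LPS in GFP (median log2 -0.27, against 0.01 over all regions) and 3 and 7 in Nur77 (median -0.29 against 0.02). Mitf, a regulator of lysosome and osteoclast genes, rose from 1367 and 1460 to 3168 and 2797 scaled tags in GFP in the larger of its 2 domains. Tfeb, its relative, went from 1696 and 1642 to 1272 and 1111. Irf5, a factor of TLR signalling, fell by 0.31 and 0.52, Fli1, an ETS factor, by 0.27 and 0.31, and Mef2c by 0.64 and 0.34.

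Among 59 surface receptor and adaptor genes 6 had a domain, 7 domains in all, with 3 higher and 4 lower in GFP and 3 and 3 in Nur77. Cd9, a tetraspanin, went from 1378 and 1414 to 2950 and 2825 in GFP and from 1431 and 1507 to 2611 and 2510 in Nur77. The endosomal receptors Tlr7 and Tlr13 fell by 0.38 and 0.46 in GFP, and Ptprc, the CD45 phosphatase, by 0.66. Itgb2, the common beta chain of leukocyte integrins, was 0.54 and 0.25 higher with scaling factors, but the sign in Nur77 changed under another scaling.

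Of 41 NF-kB pathway genes 5 had a domain, in 6 domains, with 3 higher and 1 lower in GFP and 5 and 1 in Nur77. Regions of at least 15 kb over input, which the rule left out, lay over 4 genes of the list. The members with a domain were feedback inhibitors and their partners rather than NF-kB subunits: Tnip1 and Tnip3, which bind A20, Otulin, a deubiquitinase, Zc3h12a, the nuclease regnase-1, and Socs3, an inhibitor of cytokine signalling. Tnip1 went from 611 and 634 to 1239 and 1204 scaled tags in GFP and from 742 and 740 to 1152 and 1216 in Nur77. Zc3h12a went from 1438 and 1354 to 2590 and 2625 in GFP and from 1484 and 1549 to 1964 and 2222 in Nur77, where it passed only with scaling factors. Of the 2 domains over Otulin, the one that also covers Ank fell by 0.88 and 0.84, and the other was at 0.18 and 0.26.

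The remaining lists also had most of their genes outside the domains. The share of all genes outside a domain is not given here, so this does not set the lists apart. The rule left out regions of at least 15 kb over input, and its part in these counts was not tested. Those regions lay over 4 myeloid factor, 16 receptor, 4 NF-kB, 13 signalling and 14 lysosome and lipid genes. They also lay over 1 AP-1, 1 immediate-early and 0 housekeeping genes. Of 17 AP-1 genes only Atf5 had one, of 36 immediate-early and mRNA decay genes Zfp36 and Per1, and of 40 cytokines and chemokines none, although 8 of the last lay under a region of at least 15 kb over input. Zfp36, which encodes the mRNA decay factor tristetraprolin, was 0.46 and 0.41 higher with scaling factors and at 0.00 in both lines with cyclic loess. Atf5, a stress factor, was 0.58 and 0.49 higher. Per1, a clock gene, was at -0.12 and -0.19. Of 49 signalling and cytoskeleton genes 9 had a domain, with 5 higher and 3 lower in GFP and 6 and 3 in Nur77. Of 34 lysosome and lipid genes 4 had one (1 higher and 2 lower, then 0 and 2), and of 22 housekeeping genes Gusb and Ncl (1 higher and 1 lower in each line).

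Pol II, which the rule did not use, was present in most domains. A Pol II region called in all 8 libraries overlapped 264 domains (90.1%), against 83.4% of regions of 10 to 15 kb and 59.5% of shorter ones, and the strongest such region of each domain was followed. After LPS it was higher in 84 and lower in 26 domains in GFP, against 10.0% and 8.55% of all 17081 Pol II regions, and higher in 103 and lower in 29 in Nur77, against 15.2% and 15.0%. With replicate number as a block, the Pol II libraries of one number deviating together, the counts were 117 and 46 in GFP, against 18.3% and 17.2% of all regions in that fit, and 126 and 43 in Nur77, against 24.3% and 23.6%. Without scaling factors the counts were 74 and 34 in GFP and 73 and 50 in Nur77, and with cyclic loess 68 and 35, and 71 and 44. Leaving out the factors moved the median log2 change of all Pol II regions by -0.16 in GFP and -0.41 in Nur77. Higher calls outnumbered lower ones in every case, and 77 domains were higher and 21 lower in both lines with scaling factors. Under all 3 scalings 52 were higher and 19 lower in both lines. Counts in both lines over all Pol II regions are not given here. Without GFP LPS replicate 1 the GFP count fell from 110 to 71, and without untreated Nur77 replicate 2 the Nur77 count fell from 132 to 78.

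Among the large gains of Pol II was the domain over Mir221 and Mir222. Pol II there had 902 and 872 scaled tags in untreated GFP and 13286 and 9782 after LPS, and 900 and 968 against 9381 and 12802 in Nur77 (log2 3.68 ± 0.23, adjusted p = 0.000171, and 3.55 ± 0.23, adjusted p = 0.000126, limma). H3K27ac rose by 1.62 and 1.47 in the same domain, from 1215 and 1253 to 3923 and 3663 in GFP. The LPS libraries lay above the untreated ones without overlap in both assays. Both microRNAs, which share the seed printed above, come from one primary transcript in mouse.

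Cybb encodes the catalytic subunit of the phagocyte NADPH oxidase. Its Pol II went from 212 and 432 to 2456 and 4885 in GFP and from 282 and 360 to 4292 and 5444 in Nur77 (log2 3.51 and 3.92), and its H3K27ac rose from 792 and 872 to 2525 and 2351 in GFP and from 713 and 643 to 1924 and 1901 in Nur77. One of the 4 domains over Pcdh7 (chr5:57843152-57860076) had the largest rise, from 41.4 and 48.0 to 589 and 761 in GFP and from 33.4 and 61.5 to 831 and 1010 in Nur77. Fnbp1, a membrane-bending adaptor (3.72 and 2.97), Manba, a lysosomal mannosidase (3.19 and 2.63), Cdk6, a cell cycle kinase (3.14 and 3.32), and Pam, a peptide-amidating enzyme (2.55 and 3.30), followed. Of the NF-kB list Tnip1 rose by 1.84 and 1.60 and Zc3h12a by 1.69 and 1.54. Of the 6 domains of that list 3 were higher in GFP and 4 in Nur77 and none lower, and with the replicate block 4 were higher and 1 lower in GFP and 5 and 1 in Nur77. Of the 9 myeloid factor domains with Pol II 1 was higher in GFP, and 1 was higher and 1 lower in Nur77, and with the replicate block 4 were higher and 3 lower in GFP and 2 and 1 in Nur77.

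The largest loss of Pol II in GFP was in the Mir339 domain, at 1248 and 1439 scaled tags in untreated GFP and 149 and 152 after LPS, and 2762 and 2805 against 318 and 323 in Nur77. Its leading Pol II region, 41.8 kb long, itself overlaps an input region. The domain over Arhgap45 fell by 2.05 and 3.36, Gcnt1 by 2.12 and 3.08 and Susd3 by 1.49 and 2.21. Tpcn1 went from 600 and 874 to 165 and 171 in GFP and from 885 and 1158 to 129 and 175 in Nur77. Abcg1, a cholesterol exporter, fell by 1.63 and 1.64 in Pol II and by 0.23 and 0.42 in H3K27ac. In all these the LPS libraries were below the untreated ones of their line.

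Pol II and H3K27ac changed together. Of the 84 domains with more Pol II in GFP 78 also had more H3K27ac, and all but 2 of the 26 with less Pol II had less H3K27ac. In Nur77 the numbers were 94 of 103 and 29 of 29. Of all 264 domains with Pol II, 130 had more H3K27ac and 79 less in GFP, and 127 and 87 in Nur77. Joint counts outside the domains are not given here. In 2 domains of each line Pol II was higher and H3K27ac lower: Emilin2 and Abcb1b in GFP and Abcb1b and Arhgef7 in Nur77, named after their values were seen. Across the 264 domains the changes had a Pearson r of 0.87 in GFP and 0.89 in Nur77, given as a description because the domains share the same libraries. Jade2, first in H3K27ac, stood apart: its Pol II went from 644 and 684 to 602 and 724 in GFP (log2 -0.01, adjusted p = 0.986, limma).

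**Figure D4:**
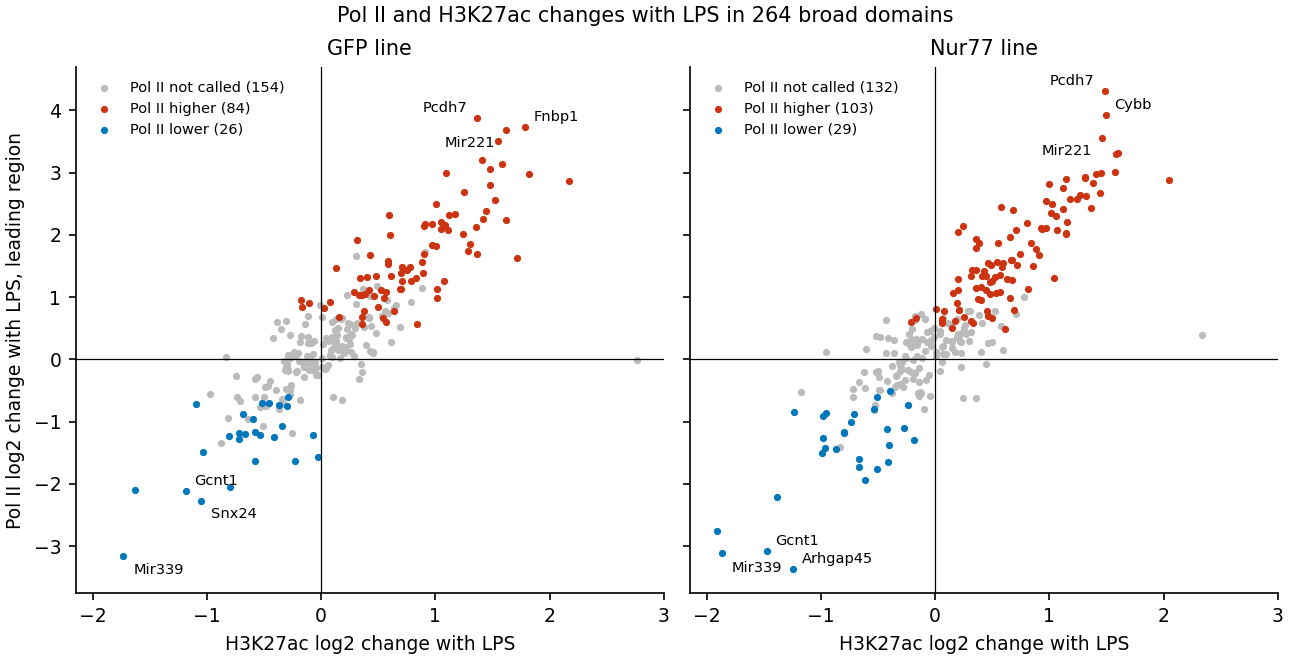
Log2 change with LPS of the leading Pol II region (y axis) against that of H3K27ac (x axis) in 264 domains, GFP line left and Nur77 line right, coloured by the Pol II call with scaling factors. Points rise from lower left (Mir339 and Gcnt1) to upper right (Pcdh7, Cybb and Mir221), and in the left panel the point at the far right with no Pol II change is Jade2.

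The lines differed in H3K27ac in many domains, more often with more in the Nur77 line before LPS. Untreated, 98 of 293 domains were higher and 37 lower in the Nur77 line than in the GFP line, against 15.4% and 15.3% of all regions. After LPS 86 were higher and 63 lower, against 16.5% and 19.5%. Of the 499 regions of at least 15 kb over input, 113 were higher and 142 lower untreated, and 131 and 165 after LPS. Of the 657 regions of 10 to 15 kb the counts were 174 and 116 untreated, and 186 and 164 after LPS. Without scaling factors the counts were 67 and 40 untreated and 65 and 74 after LPS, so after LPS the direction of the majority turned, and with cyclic loess they were 115 and 32, and 114 and 45. Under all 3 scalings 67 were higher and 32 lower untreated, and 65 and 45 after LPS, and no called domain changed sign. Per covered kb 11 and 5 domains differed untreated and 11 and 20 after LPS, so most of the calls on summed tags did not pass once the length called was divided out. Without untreated Nur77 replicate 2 the untreated count fell from 135 to 88. In both conditions 69 domains were higher and 26 lower, with no such count over all regions given here.

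Il17ra, the receptor chain for interleukin 17, had 920 and 892 scaled tags in untreated GFP and 2042 and 2151 in untreated Nur77, and 1173 and 1037 against 2017 and 1922 after LPS. The difference was 1.21 ± 0.07 (SE, adjusted p = 3.19e-07, limma) untreated and 0.84 after LPS. The domain over Tyk2, a Janus kinase, and Cdc37, a kinase chaperone, had 317 and 308 against 687 and 707 untreated (log2 1.15) and 1062 and 991 against 1399 and 1473 after LPS (0.48). Gm20125 differed by 1.09 and 1.02, the Mir339 domain by 1.05 and 0.91, and B4galt1, a galactosyltransferase, by 0.90 and 1.02. Elk3, an ETS factor that answers to Ras signalling, was at 613 and 613 against 1084 and 1190 untreated. The lines did not overlap in any of these domains within a condition.

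Fewer domains were lower in the Nur77 line. The largest difference was near G730013B05Rik (chr16:50563388-50582003), at 907 and 878 in untreated GFP and 408 and 421 in untreated Nur77, and 1624 and 1461 against 993 and 893 after LPS. Cd200r1, an inhibitory receptor of myeloid cells, had 1138 and 1167 against 691 and 630 untreated and 1157 and 1105 against 603 and 560 after LPS. The domain over Ifitm3 and Ifitm6, of a family of antiviral membrane proteins, was at -0.77 in both conditions. Fabp5, a fatty acid binding protein, was at -0.60 and -0.49 and Tlr13 at -0.53 and -0.56. None of these groups overlapped.

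The share of domains higher in the Nur77 line was compared across the numbers of HA regions. Untreated, 22.8% of domains with 0 HA regions were higher and 18.8% lower, 33.3% and 9.65% with 1, 50.0% and 10.0% with 2, and 38.9% and 5.56% with 3 or 4. The median differences were 0.01, 0.06, 0.17 and 0.07 on the log2 scale. After LPS the shares higher were 21.8%, 27.2%, 43.3% and 38.9%, and the shares lower 24.75%, 18.4%, 21.7% and 22.2%. These shares are descriptions with no test. Other H3K27ac regions also had larger shares higher where HA was present. At 10 to 15 kb the shares higher untreated were 17.6% with 0, 32.5% with 1 and 51.5% with 2 or more. The shares lower there were 18.6%, 16.4% and 21.2%. Below 10 kb 10.6%, 24.9% and 25.0% were higher and 13.2%, 14.7% and 33.3% lower, the last of each from only 12 regions. In the regions of at least 15 kb over input 17.0%, 21.0% and 31.4% were higher and 31.45%, 30.0% and 22.9% lower. Per covered kb the median differences in the domains for 0, 1 and 2 or more were -0.02, 0.04 and 0.07 untreated, and -0.05, -0.02 and -0.03 after LPS. Length rises with the HA number as well, and its part in these shares was not tested. With LPS the shares higher in GFP lay close together, at 47.5%, 50.9%, 50.0% and 44.4%, while the shares lower were 27.7%, 25.4%, 36.7% and 22.2%.

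**Figure D5:**
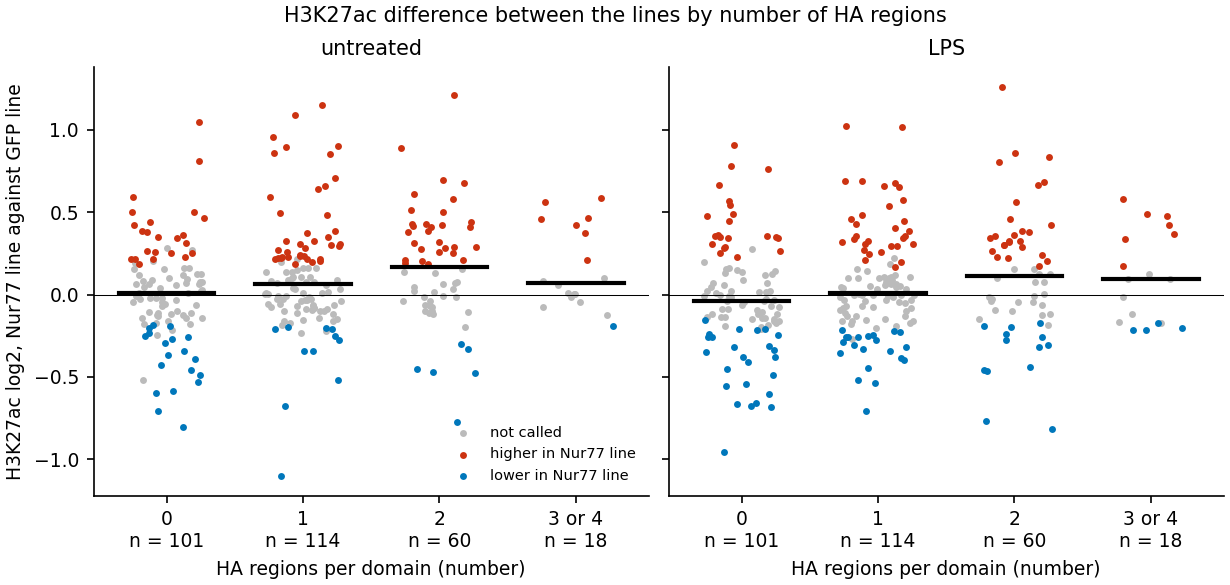
Log2 difference in H3K27ac, Nur77 line against GFP line, by number of HA regions per domain, untreated (left) and after LPS (right), with 1 point per domain, a bar at the median and colours for the calls. The median untreated was 0.01 at 0 HA regions and 0.17 at 2, and domains above and below 0 occur at every number.

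Pol II differed between the lines in few domains by the same test. After LPS 5 leading regions were higher and 1 lower in the Nur77 line, against 0.872% and 0.650% of all Pol II regions, and untreated 1 was higher and 1 lower, against 0.111% and 0.0585%. With replicate number as a block the counts were 49 and 10 after LPS, against 6.48% and 6.29% of all Pol II regions in that fit, and 22 and 6 untreated, against 2.71% and 3.27%. Of those, 30 and 8, and 21 and 6, differed the same way in H3K27ac and none the opposite way, with no joint count over all regions given here. The 5 were over Nav1 (log2 1.64), Dab2, an endocytic adaptor (1.66), Trps1 (1.34), the Mir339 domain (1.09) and Sash1 (0.93), and the 1 lower was over Ankrd13b and Git1 (-1.10). Dab2 had 244 and 489 scaled tags in GFP after LPS and 998 and 1200 in Nur77, without overlap. These counts rest on single libraries, with 0 to 5 called after LPS when any 1 library was left out.

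The response to LPS itself differed between the lines in few domains. In H3K27ac 7 domains passed the interaction test, 2 with a larger change in the Nur77 line on the signed scale and 5 with a smaller one, against 0.594% of all regions in either direction, and the count was 0 or 1 without any 1 of 6 libraries (all but the second LPS library of each line). In Pol II the count was 0 (limma), as it was over all regions (0%). With replicate number as a block it was also 0, in the domains and over all regions. A separate count of direction found 3 domains called oppositely in the 2 lines, named here after their values were seen. Mtss1 (chr15:59045355-59062184) was at 0.31 in GFP and -0.17 in Nur77, Pxn, encoding paxillin (chr5:115505234-115523887), at 0.23 and -0.17, and Pls3, encoding plastin 3 (chrX:75809727-75826349), at -0.33 and 0.23. Only Pls3 passed the interaction test. Without scaling factors a sign turned in each of the 3, in Nur77 for Pls3 and in GFP for Mtss1 and Pxn. The opposite directions therefore depend on the scaling.

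HA changed with LPS at few sites in the domains, and the count depended on the fit. Of 291 HA regions 8 were higher and 3 lower (limma, FDR 0.05), against 3.28% and 1.35% of all 11234 HA regions. With replicate number as a block, the numbers pairing the libraries, 48 were higher and 60 lower, against 20.4% and 20.0% of all HA regions in that fit. Without scaling factors, and with replicates 1 and 2 only, the count was 0. It was also 0 without untreated replicate 1, without untreated replicate 3 or without LPS replicate 1, and it was 1 without LPS replicate 3 and 7 without LPS replicate 2.

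The Gm20125 domain held the largest HA gain, at chr10:17012152-17013168, from 54.1, 38.5 and 39.4 scaled tags to 147, 115 and 139 (log2 1.59 ± 0.27, SE, adjusted p = 0.0148, limma). Jade2 followed, from 101, 57.1 and 117 to 221, 288 and 182 (1.36). Near Gm8288 HA went from 73.4, 72.6 and 56.2 to 158, 229 and 123 (1.29). At the interferon and interleukin 10 receptor genes Ifnar2 and Il10rb the HA region went from 72.9, 98.9 and 74.9 to 204, 199 and 184 (1.25). At Uap1l1 and Dpp7 it went from 46.4, 92.1 and 71.5 to 145, 198 and 148 (1.25). At each of these sites the LPS libraries exceeded the untreated ones without overlap. H3K27ac was also higher with LPS in the Gm20125, Jade2 and Ifnar2 domains, by 2.07, 2.33 and 0.94 in the Nur77 line. For the domains of the other called gains it is not given here.

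HA was lower with LPS at Rptor (148, 141 and 208 to 71.7, 62.7 and 73.3), at Gm42377 (169, 191 and 212 to 69.0, 94.4 and 81.2) and at Csgalnact2, a chondroitin-synthesis enzyme (359, 290 and 401 to 186, 122 and 156). None of the conditions overlapped. H3K27ac in the Nur77 line was lower in the Gm42377 domain (-0.95) and the Csgalnact2 domain (-0.36), and at 0.11 with an adjusted p of 0.148 (limma) in the Rptor domain that holds the site.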

How the data were processed

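ChIP-seq of H3K27ac, Pol II, HA and input in the groups described above was analysed from region lists made by the authors. The submitters' processing notes name HISAT2 2.1.0, the build mm10 and HOMER (HOMER's version: not given in the sources used here). The values are the deposited normalized tag count, a signal scaled by the authors' caller to 10 M tags per the file headers. Each library was called alone, HA in factor style and the rest in histone style, per the file headers. The other columns of the lists were not used.

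Regions of one target were merged at 1 bp, and the tags of the pieces were summed. Such a sum moves with the length called, so tags per covered kb were tested too. log2(sum + 1) was fitted with limma 3.58.1 in R 4.3.3, with an intensity trend, 1 mean per group and trimmed-mean scaling (30% of M-values, 5% of A-values), over every region called in all libraries of a target. P-values were adjusted by Benjamini-Hochberg per comparison, at FDR 0.05. The steps were tested on simulated data. Each domain was read through its leading Pol II region, the overlapping one with most tags.

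Same-numbered libraries deviated together in Pol II (correlations 0.35 to 0.63) and HA (0.48 to 0.83). H3K27ac libraries did not (-0.10 to 0.09). A block of replicate number was fitted only as an alternative, since the labels name no batch. The domains, the gene lists and the tests were chosen with earlier results of these data known. Named domains are the 10 longest, the 10 with most H3K27ac, the 10 with most HA regions, up to 5 called per comparison and direction by size of change, the 3 on either side of the length limit, and up to 3 per gene list. Not every domain so chosen is described. A domain carries the names of up to 3 genes it overlaps, or of the nearest within 50 kb. Gene starts, promoters and microRNAs are from RefSeq on GRCm38.p6. Sequence outside promoters and microRNAs was not used here.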

Additional observations from a re-analysis of the deposited data

Results flagged for a closer look

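In 7 domains the change of H3K27ac with LPS differed between the lines by the interaction test of limma (FDR 0.05 over all regions), given as the change in the Nur77 line minus that in the GFP line on the log2 scale. Tyk2 and Cdc37 differed by -0.67 ± 0.09 (SE, adjusted p = 0.0129), from 317 and 308 to 1062 and 991 scaled tags in GFP and from 687 and 707 to 1399 and 1473 in Nur77. Ahnak, a giant scaffold protein, differed by -0.57 (adjusted p = 0.0376), with 951 and 923 untreated and 1241 and 1285 after LPS in GFP and 932 and 987 against 805 and 937 in Nur77. Plec, the cytolinker plectin, differed by -0.55 (adjusted p = 0.032), Tfeb by -0.50 (adjusted p = 0.0465) and the domain over Arhgap45, Polr2e and Abca7 by -0.45 (adjusted p = 0.0376). The other direction was seen for Chst10, a sulfotransferase, at 0.57 (adjusted p = 0.021), and for Pls3 at 0.56 (adjusted p = 0.0493). The leading Pol II region of the Chst10 domain went from 779 and 702 to 271 and 372 in GFP and from 576 and 522 to 517 and 855 in Nur77, and no Pol II interaction passed the test. Per covered kb none of the 7 interactions passed, and the Pls3 difference was -0.10. Without scaling factors only Tyk2 and Cdc37 passed (adjusted p = 0.0263), and the other 6 had adjusted p-values of 0.0766 to 0.0923. The count was 0 without GFP untreated replicate 2, Nur77 untreated replicate 1 or Nur77 untreated replicate 2, and 1 without GFP untreated replicate 1, GFP LPS replicate 1 or Nur77 LPS replicate 1. Leaving out the second LPS library gave 7 for the GFP line and 8 for the Nur77 line.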

How the results depend on the processing

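The 47 named H3K27ac calls were recomputed under every alternative, 705 values in all, of which 626 kept direction and side of the threshold, 77 kept the direction but no longer passed and 2 turned. For 28 named Pol II calls 335 of 420 values kept both and 85 no longer passed, and for 8 HA calls 42 of 96 and 54. Both values that turned were Pls3 per covered kb, at -0.10 for the interaction and -0.0072 for the line difference after LPS. The cause of the changes below was not tested.

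For H3K27ac the interaction count went from 7 to 0 over every merged region, to 1 without scaling factors, to 0 with only libraries called with the filter option and to 0 per covered kb. The line counts went from 149 to 96 with only those libraries and to 31 per covered kb after LPS, and from 135 to 70 and 16 untreated. For Pol II, tags per covered kb gave 55 for LPS in GFP, 67 for LPS in Nur77 and 0 for both line comparisons. The line count after LPS, 6, became 2 with all Pol II regions of a domain summed, 1 over every merged region, 3 without scaling factors and 59 with the replicate block. The untreated one, 2, became 1 with regions summed, 1 with cyclic loess, 0 over every merged region and 28 with the replicate block. The HA count of 11 became 0 without scaling factors, 0 with only replicates 1 and 2, an alternative added after seeing the data, and 108 with the replicate block.

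The replicate block gave 225, 232, 6, 149 and 139 calls in H3K27ac for LPS in GFP, LPS in Nur77, the interaction and the lines after LPS and untreated, where the numbers did not pair the libraries, and 163, 169 and 0 for the first 3 in Pol II. Leaving out each library gave, in that order, 197 to 226, 197 to 241, 0 to 8, 117 to 147 and 88 to 144 for H3K27ac, 71 to 111, 78 to 136, 0 to 0, 0 to 5 and 0 to 3 for Pol II, and 0 to 11 for HA. The number of domains was 530 at a length limit of 12.5 kb, 124 at 20 kb, 792 with input overlap allowed and 108 with 15000 bp called in every library alone. HA regions called in any library numbered 2.65 per domain, against 0.993 in all 6. Depth was lowest in HA untreated replicate 1 and LPS replicate 1, at 6.41 and 6.90 M tags, and its part in the HA counts was not tested.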

Other observations

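A set of 6 domains had no Pol II region in any of the 8 Pol II libraries, and they are named here after their values were seen. They lay over Mtmr3, a lipid phosphatase, Tns3, a focal adhesion protein, Fndc3a, Ctnnd1, which encodes p120 catenin, Sae1, a subunit of the SUMO-activating enzyme, and Peak1, a pseudokinase, in the one of its 3 domains at chr9:56284384-56312667. Their H3K27ac was 13.3 to 23.3 scaled tags per covered kb, against a median of 57.0 over all domains. The Fndc3a and Sae1 domains and that Peak1 domain also had no HA region in any HA library, and they were the only domains of the 293 without one.

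The Zswim4 domain, over the Mir23a, Mir27a and Mir24-2 cluster, held 1 Pol II region with no call with LPS in either line. Its H3K27ac was 1347 and 1194 scaled tags in untreated GFP, 1468 and 1562 after LPS, 1358 and 1414 in untreated Nur77 and 1256 and 1385 after LPS. Pol II there was 2157 and 2058, 3359 and 2910, 1759 and 2236, and 2557 and 2862 in the same order, and neither line passed the limma test (adjusted p = 0.0715 and 0.107), while with replicate number as a block GFP passed (adjusted p = 0.0296) and Nur77 did not (0.0553).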
